A study of Mus musculus with 7 samples.

Results

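The genes of insulin and PI3K-AKT signalling followed here were *Insr*, *Irs1*, *Irs2*, *Pik3r1*, *Akt1*, *Akt2*, *Foxo1*, *Igfbp1* and *Igfbp2*, which are 9 of the 35715 gene names on the array. They were chosen by name, with earlier results of these data known, and every non-control probe that carries one of these names was taken. This gave 16 probes, and all 16 were detected on all 7 arrays. The livers came from untreated C57BL/6J mice at 4 weeks of age with both *Rbpj* alleles floxed. Mice with AlfpCre are the *Rbpj*-/- group (n = 3, animals -/-_N3, -/-_N5 and -/-_2866, labelled with cholestasis) and mice without it are the *Rbpj*+/+ group (n = 4, animals +/+_1155, +/+_1156, +/+_1024 and +/+_991, labelled as having no cholestasis). RBPJ is the DNA-binding partner through which Notch receptors control transcription. AlfpCre acts in the cells that give rise to hepatocytes and cholangiocytes, whereas whole liver was measured, so the *Rbpj* of other cell types is part of what the arrays read. Each animal gave 1 array, and genotype and cholestasis cannot be told apart in this design.

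Insulin binds its receptor, a tyrosine kinase encoded by *Insr*, and the activated receptor phosphorylates the adaptors IRS1 and IRS2. These recruit phosphoinositide 3-kinase through its regulatory subunit, encoded by *Pik3r1*, and the lipid that this kinase makes activates AKT1 and AKT2. AKT phosphorylates the transcription factor FOXO1 and holds it out of the nucleus, so that in the fed liver the genes FOXO1 activates, *Igfbp1* among them, are held low. IGFBP1 and IGFBP2 are secreted by hepatocytes and bind insulin-like growth factors in the blood. An array measures transcripts and gives no information on phosphorylation, on which most of this pathway runs.

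A level here is the log2 intensity of a probe minus the 75th percentile of all probes of its array, a difference is *Rbpj*-/- minus *Rbpj*+/+ on that scale, and a gene was called when limma's adjusted p over all tested probes was below 0.1. The deleted gene was checked first. *Rbpj* lay between 0.29 and 0.97 in the *Rbpj*+/+ livers and between -0.78 and -0.35 in the *Rbpj*-/- livers by its brighter probe, a difference of -1.13 (SE 0.24, adjusted p = 0.0115). Its second probe, which was dimmer and overlapped between the groups, gave -1.63 (limma adjusted p = 0.0723). That probe was detected in 4 of 4 *Rbpj*+/+ and 2 of 3 *Rbpj*-/- livers. A probe was tested if detected in every liver of either genotype, so this probe passed through the *Rbpj*+/+ arrays alone. Its p is therefore no fair test. The comparison was broad: 34.2% of the 18771 tested genes were called, 14.6% higher and 19.6% lower in *Rbpj*-/- livers, the median difference was -0.13, and 33.6% of the tested probes were called. In 36.5% of the genes the 2 groups did not overlap. The 75th percentile itself was 57.5 to 103 intensity units on the *Rbpj*+/+ arrays and 118 to 143 on the *Rbpj*-/- arrays, 0.73 apart on the log2 scale, so that a difference is relative to a reference that was brighter in every *Rbpj*-/- liver. The arrays of +/+_1156 and -/-_N3 had brighter dim probes than the others, with 61.8% and 64.9% of probes detected against 41.1% to 47.7%. Markers of the cell types of the liver also moved with the genotype. Hepatocyte markers (8 genes) had a summed level of 3515 to 5150 in *Rbpj*+/+ and 2467 to 3109 in *Rbpj*-/- livers, with 4 of 8 lower and 0 higher. Stellate cell and fibroblast markers went from 50.2 to 74.7 up to 111 to 182 (6 of 7 higher), macrophage markers from 59.6 to 75.4 up to 136 to 174 (5 of 6 higher), and endothelial markers from 52.2 to 75.7 up to 82.6 to 129 (2 higher and 1 lower of 6). Cholangiocyte markers lay at 3.95 to 4.41 and 4.79 to 12 (2 of 6 tested higher), and lymphocyte markers at 4.16 to 5.11 and 1.65 to 2.41 (4 of 4 tested lower). None of these markers was undetected on all arrays. In whole liver, fewer cells of a type and less RNA per cell cannot be told apart, and the part of these shifts in the results below was not tested.

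Of the 9 genes, *Igfbp1* alone was called by its brightest tested probe, as higher in the *Rbpj*-/- livers. The core of the pathway from receptor to FOXO1 held no call at that level, although a second probe of *Insr* was lower. The call of *Igfbp1* made 1 of 9 genes, or 11.1%, against 34.2% of all genes in either direction and 14.6% in the higher direction. The count of lower members was 0 with limma, against 1 at an unadjusted p below 0.05 (*Insr*), 1 with limma-trend (*Insr*) and 3 with array weights (*Insr*, *Irs1* and *Akt2*). By probe, 1 of 16 was higher and 1 of 16 lower. The median difference of the 9 genes was -0.16, close to the -0.13 of all genes.

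**Figure D1:**
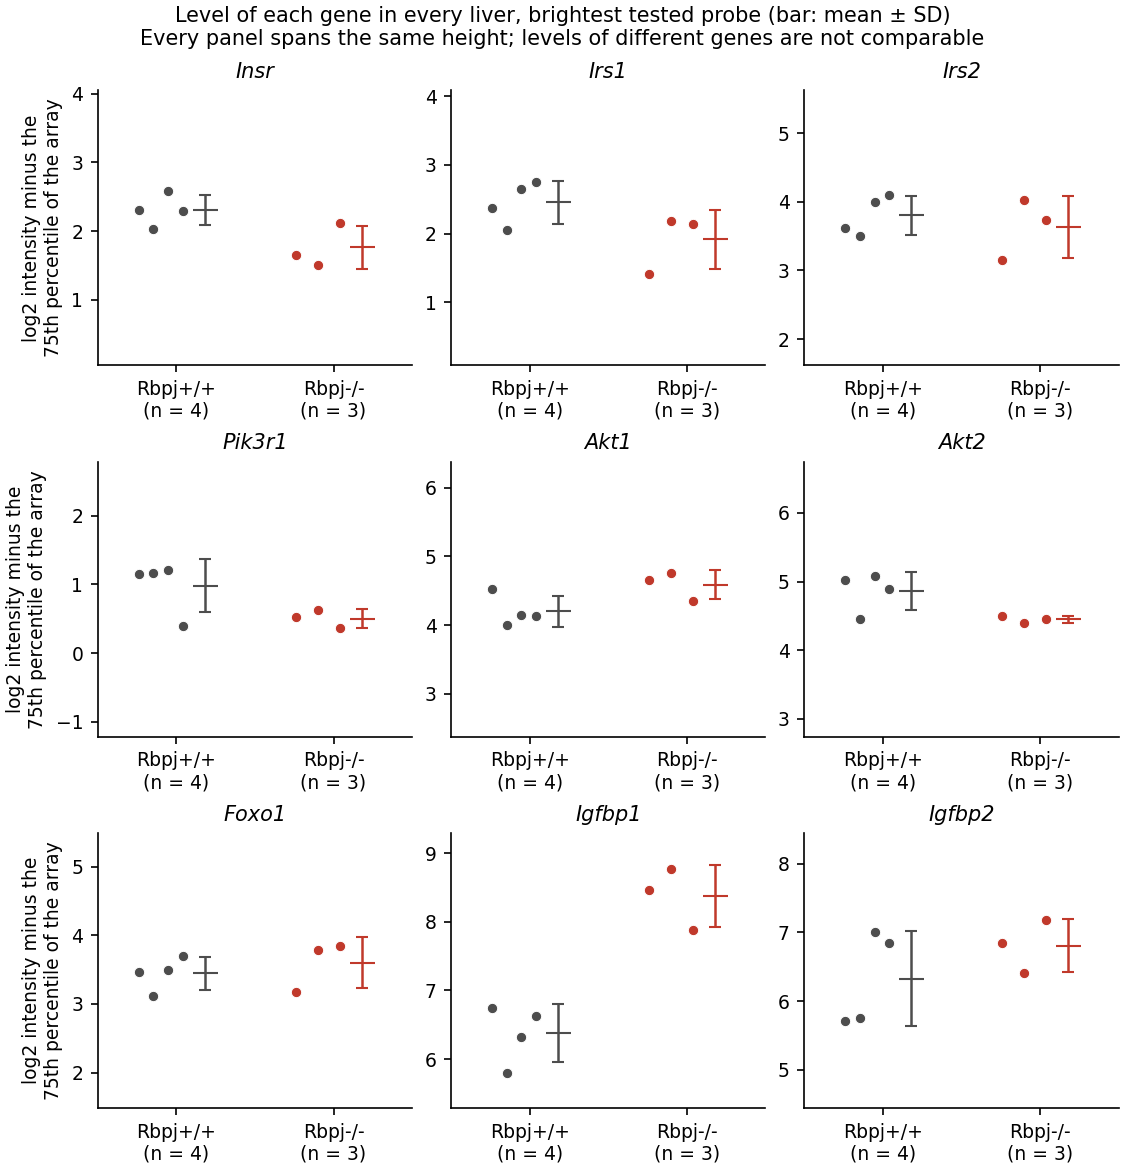
Level of each of the 9 genes by its brightest tested probe in the 4 Rbpj+/+ and 3 Rbpj-/- livers, as log2 intensity minus the 75th percentile of the array; each point is 1 liver and the bar is the mean ± SD. Igfbp1 is the only panel in which the groups do not overlap; its Rbpj-/- livers lie at 7.88 to 8.77 and its Rbpj+/+ livers at 5.80 to 6.75.

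*Igfbp1* gave the clearest difference. Its level was 6.75, 5.80, 6.33 and 6.63 in *Rbpj*+/+ livers +/+_1155, +/+_1156, +/+_1024 and +/+_991, and 8.46, 8.77 and 7.88 in *Rbpj*-/- livers -/-_N3, -/-_N5 and -/-_2866. Every *Rbpj*-/- liver lay above every *Rbpj*+/+ liver, and animal -/-_2866 was the lowest of the 3. The mean rose from 6.38 ± 0.42 (SD, n = 4) to 8.37 ± 0.45 (SD, n = 3), a difference of 2.0 (SE 0.30, 95% interval 1.32 to 2.67) or 3.99-fold, with an adjusted p of 0.00322. The exact two-sided permutation test over the 35 assignments of the 7 animals gave p = 0.0286, the smallest it can give. Before the percentile was subtracted the intensity was 4619 to 11031 in *Rbpj*+/+ and 27834.5 to 56791 in *Rbpj*-/- livers, so the separation was present before and after scaling. The gene was called in all 19 alternative settings run on it, with differences of 1.76 to 2.34 and adjusted p of 0.000592 to 0.0510. Without the 2 arrays with brighter dim probes it was 1.76 (adjusted p = 0.0228). Of the 8 hepatocyte markers, of the cells that make IGFBP1, 4 were lower and 0 higher in the same livers, with differences of -0.83 to 0.94, and their part in the difference of *Igfbp1* was not tested. *Igfbp1* has 1 probe on the array, at chr11:7102442-7102501 on the plus strand (mm9, as the array design gives it).

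The bases before the start of *Igfbp1* are shown because this promoter is the textbook example of repression by insulin, through the insulin response sequence to which FOXO proteins bind. *Irs1* and *Irs2* are set beside it because they were the other members whose promoters held the same letters. The letters CAAAACA, on either strand, are in capitals (the opposite strand reads TGTTTTG). Each sequence is the 250 bases before the annotated start, 5′ to 3′ on the strand of the gene, from RefSeq (GRCm38.p6).
Igfbp1, chr11:7197537-7197786, plus strand: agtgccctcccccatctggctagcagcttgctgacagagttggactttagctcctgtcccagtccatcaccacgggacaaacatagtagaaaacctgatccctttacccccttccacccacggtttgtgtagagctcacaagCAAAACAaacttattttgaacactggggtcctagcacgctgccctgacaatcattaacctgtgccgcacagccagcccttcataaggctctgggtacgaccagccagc
Irs1, chr1:82291440-82291689, minus strand: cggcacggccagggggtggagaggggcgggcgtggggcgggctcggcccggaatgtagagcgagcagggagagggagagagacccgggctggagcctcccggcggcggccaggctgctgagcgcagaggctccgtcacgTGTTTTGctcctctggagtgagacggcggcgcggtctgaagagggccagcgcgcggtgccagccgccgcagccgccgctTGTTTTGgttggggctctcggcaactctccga
Irs2, chr8:11008930-11009179, minus strand: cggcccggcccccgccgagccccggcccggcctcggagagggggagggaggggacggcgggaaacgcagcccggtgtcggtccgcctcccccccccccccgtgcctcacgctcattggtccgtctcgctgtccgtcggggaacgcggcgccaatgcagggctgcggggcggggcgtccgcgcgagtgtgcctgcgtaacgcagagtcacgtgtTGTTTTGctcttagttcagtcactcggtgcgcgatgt
The match in *Igfbp1* began 108 bases before the start, on the strand of the gene, that in *Irs2* began 37 bases before it on the opposite strand, and those in *Irs1* began 111 and 32 bases before it on the opposite strand. CAAAACA stood in 5.56% of the 32851 promoters of the table and in 3 of the 14 promoters of the 8 members it lists. The FOXO motif GTAAACA, which shares no overlap with these matches, stood in 3.17% of all promoters and in 1 of the 14, a promoter of *Akt1*. These letters are thus shared by *Igfbp1*, which was called, and by *Irs1* and *Irs2*, which were not. A match in letters is a description of the promoter and does not show that a factor binds there.

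*Igfbp2*, the second binding protein among the members, was not called. Its level was 5.71, 5.76, 7.0 and 6.84 in the *Rbpj*+/+ livers in the order given above and 6.84, 6.40 and 7.18 in the *Rbpj*-/- livers. The *Rbpj*+/+ livers formed a low pair (+/+_1155 and +/+_1156) and a high pair (+/+_1024 and +/+_991), and the high pair lay within the range of the *Rbpj*-/- livers. The difference was 0.48 (SE 0.37, 95% interval -0.37 to 1.33, adjusted p = 0.372) by the brighter probe and 0.48 (adjusted p = 0.388) by the second. Its intensity before scaling did not overlap, at 4620 to 8591 against 10984 to 17084, but came to overlap once each array's percentile was subtracted.

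*Insr*, the receptor, was read by 3 probes, all on the minus strand of chromosome 8 (mm9), and the probes disagreed. The brightest, at chr8:3151667-3151726, had levels of 2.31, 2.04, 2.59 and 2.30 in the *Rbpj*+/+ livers and 1.66, 1.51 and 2.12 in the *Rbpj*-/- livers. Animal -/-_2866 lay within the *Rbpj*+/+ range and the remaining livers lay below it. The difference of -0.55 (SE 0.22, 95% interval -1.05 to -0.04) had an adjusted p of 0.107, just outside the threshold, and an exact permutation p of 0.0857. The probe at chr8:3155472-3155531 had levels of 0.93, 1.0, 1.11 and 0.99 against 0.21, -0.10 and 0.41. Here the groups did not overlap and the *Rbpj*+/+ livers were close together, and the difference of -0.83 (SE 0.19) was called at an adjusted p of 0.0160 with an exact permutation p of 0.0286. The intensity of this probe before scaling did overlap, at 123.6 to 195.5 in *Rbpj*+/+ and 121.4 to 164.6 in *Rbpj*-/- livers. Its groups came apart only once each array's percentile was subtracted. The third and dimmest, at chr8:3154024-3154083, overlapped widely and gave 0.17 (SE 0.27, adjusted p = 0.679). The first of these was itself called as lower in 7 of 19 alternative settings, among them without +/+_1156 (-0.63, adjusted p = 0.0676), without -/-_2866 (-0.72, adjusted p = 0.0664) and with quantile normalization (-0.52, adjusted p = 0.0891).

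**Figure D2:**
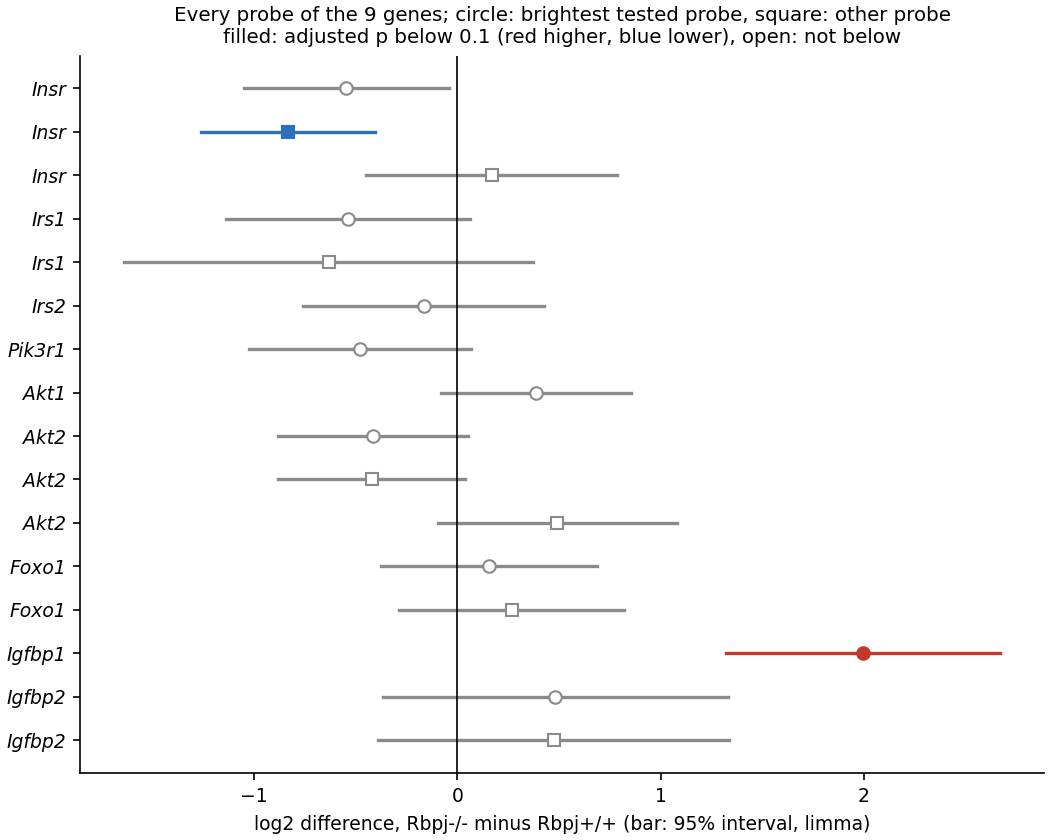
Difference between the genotypes in log2 units, Rbpj-/- minus Rbpj+/+, for each of the 16 probes, with its 95% interval from limma; circles are the brightest tested probe of a gene, squares its other probes, and filled symbols have an adjusted p below 0.1. Igfbp1 stands at 2.0, the second Insr probe at -0.83, and the last of the 3 Akt2 probes lies on the other side of 0 from the first and second.

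Neither insulin receptor substrate was called. *Irs1*, by its brighter probe at chr1:82229692-82229751 (minus strand, mm9), had levels of 2.37, 2.05, 2.65 and 2.75 in the *Rbpj*+/+ livers and 1.42, 2.19 and 2.14 in the *Rbpj*-/- livers. Animal -/-_N3 lay below all others, while -/-_N5 and -/-_2866 lay within the *Rbpj*+/+ range. The difference was -0.54 (SE 0.26, adjusted p = 0.169), and the second probe, whose SD among *Rbpj*+/+ livers was 0.80, gave -0.63 (adjusted p = 0.325). Without +/+_1156 the brighter probe was called as lower (-0.68, adjusted p = 0.0881). *Irs2*, the isoform whose transcript FOXO1 activates during fasting, had levels of 3.62, 3.50, 3.99 and 4.09 against 3.15, 4.03 and 3.73. Animal -/-_N3 was again the lowest of all livers and -/-_N5 lay among the highest. The difference was -0.16 (95% interval -0.76 to 0.43, adjusted p = 0.674) and changed sign to 0.08 without -/-_N3 and to 0.10 with normexp background correction.

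The 2 adaptors ranked the animals alike. From lowest to highest the rank was +/+_1156, +/+_1155, +/+_1024 and +/+_991 for both within *Rbpj*+/+, and -/-_N3, -/-_2866 and -/-_N5 for both within *Rbpj*-/-. The level of *Irs2* minus that of *Irs1* on the same array was therefore less spread than either gene, at 1.25, 1.45, 1.34 and 1.34 in *Rbpj*+/+ and 1.73, 1.84 and 1.59 in *Rbpj*-/- livers. The absolute value of such a difference has no meaning, since different probes were compared, but its change between genotypes has. Every *Rbpj*-/- value lay above every *Rbpj*+/+ value, the mean went from 1.35 ± 0.08 (SD, n = 4) to 1.72 ± 0.13 (SD, n = 3), and the difference of 0.37 had an exact permutation p of 0.0286, or 0.0429 after Benjamini-Hochberg adjustment over the 3 gene pairs tested. *Irs1* was thus lower relative to *Irs2* in the *Rbpj*-/- livers. The p of 0.0286 is the smallest this test can give. The adjustment does not cover the choice of genes, made with earlier results of these data known. With the mean of all tested probes in place of the brightest, which brings in the variable second probe of *Irs1*, the difference was 0.42 and the exact permutation p 0.314.

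*Pik3r1*, the main regulatory subunit of PI3-kinase in the liver, was measured at 1.16, 1.17, 1.21 and 0.40 in the *Rbpj*+/+ livers and 0.52, 0.63 and 0.36 in the *Rbpj*-/- livers. Animal +/+_991 stood apart from the other *Rbpj*+/+ livers and lay among the *Rbpj*-/- ones. The difference was -0.48 (SE 0.24, adjusted p = 0.180), and it was called as lower without +/+_991 (-0.67, adjusted p = 0.0607).

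*Akt1* and *Akt2* encode the AKT isoforms of the liver, of which AKT2 carries most of the metabolic response to insulin. *Akt1*, at chr12:113892079-113892138 (minus strand, mm9), had levels of 4.53, 4.00, 4.15 and 4.13 in the *Rbpj*+/+ and 4.66, 4.75 and 4.35 in the *Rbpj*-/- livers. Only +/+_1155 reached into the *Rbpj*-/- range. Before scaling the intensity of *Akt1* did not overlap, at 1022 to 2363 in *Rbpj*+/+ and 2415 to 3608 in *Rbpj*-/- livers. The difference was 0.39 (SE 0.21, adjusted p = 0.199), and it passed the threshold with normexp background correction (0.57, adjusted p = 0.0489), with quantile normalization (0.52, adjusted p = 0.0977) and in the authors' processed table (0.53, adjusted p = 0.0971).

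The reading of *Akt2* depended on the probe. The array design places 2 of its 3 probes, the brighter ones, on chromosome 11 (chr11:16417252-16417311 and chr11:16417259-16417318, plus strand, mm9), although RefSeq places *Akt2* on chromosome 7 and lists a pseudogene of it, *Akt2-ps*, on chromosome 11. Which transcripts these probes read was not tested, and their values are uncertain for that reason. The brightest had levels of 5.02, 4.46, 5.08 and 4.90 in the *Rbpj*+/+ livers and 4.50, 4.40 and 4.46 in the *Rbpj*-/- livers. The *Rbpj*-/- livers were close together, and +/+_1156 alone among the *Rbpj*+/+ livers was as low as they were. The difference was -0.41 (SE 0.21, adjusted p = 0.173), that of the second, which overlaps it by all but a few bases, -0.42 (adjusted p = 0.162), so that the pair is close to 1 measurement, and without +/+_1156 the first was called as lower (-0.55, adjusted p = 0.0430). The third probe, at chr7:28418226-28418285 (plus strand), was far dimmer, with levels of -0.13, -0.80, -0.92 and -0.13 against 0.24, -0.10 and -0.15. It gave a difference of 0.49 in the other direction (SE 0.26, adjusted p = 0.197), which did not pass the threshold either.

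On the same array, *Akt1* minus the brightest *Akt2* probe went from -0.66 ± 0.23 (SD, n = 4) to 0.14 ± 0.23 (SD, n = 3), with no overlap between the groups, a difference of 0.80 with an exact permutation p of 0.0286 (0.0429 adjusted over the 3 pairs). With the chromosome 7 probe of *Akt2*, an alternative chosen after seeing the data, the difference was -0.10 and the exact permutation p 0.714. The shift between the AKT isoforms therefore rests on the probes placed on chromosome 11. The limits given for the test of *Irs2* minus *Irs1* apply to this pair too.

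*Foxo1* was not called by either probe, and its groups overlapped. Its brighter probe (chr3:52150183-52150242, plus strand, mm9) read 3.47, 3.12, 3.50 and 3.70 in the *Rbpj*+/+ and 3.18, 3.78 and 3.85 in the *Rbpj*-/- livers. The difference was 0.16 (95% interval -0.38 to 0.69, adjusted p = 0.656), and the second probe gave 0.27 (adjusted p = 0.450).

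*Igfbp1* was then set against other transcripts that FOXO1 is known to activate. The list of FOXO factors and FOXO-activated transcripts had 5 tested genes of 8, with a median difference of 0.23. Of these limma called 0 in either direction, with 0 at an unadjusted p below 0.05, against 34.2% of all genes called. Whether 0 of 5 differs from that share was not tested. *G6pc*, the catalytic subunit of glucose-6-phosphatase, differed by 0.23 (adjusted p = 0.493), *Pck1*, the gluconeogenic phosphoenolpyruvate carboxykinase, by -0.15 (adjusted p = 0.612) and *Ppargc1a*, a coactivator of FOXO1, by 0.69 (adjusted p = 0.187). *Pdk4*, a kinase that inhibits pyruvate dehydrogenase, differed by 0.26 (adjusted p = 0.734) and the transcription factor *Klf15* by -0.02 (adjusted p = 0.954). The probes of *Foxo3*, *Foxo4* and *Foxo6* were too dim to be tested. On the same array *Igfbp1* was also set beside *Irs2*, *Pck1* and *G6pc*, 3 pairs chosen after the values had been seen and given as a description with no test. The mean of *Igfbp1* minus *Irs2* was 2.57 in *Rbpj*+/+ and 4.74 in *Rbpj*-/- livers, 2.16 apart, that of *Igfbp1* minus *Pck1* moved by 2.15 and that of *Igfbp1* minus *G6pc* by 1.76. Against *Igfbp2*, a pair that was tested, the difference was 1.51, with overlap, since +/+_1155 at 1.04 lay above -/-_2866 at 0.70 (exact permutation p = 0.0857, adjusted 0.0857).

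**Figure D3:**
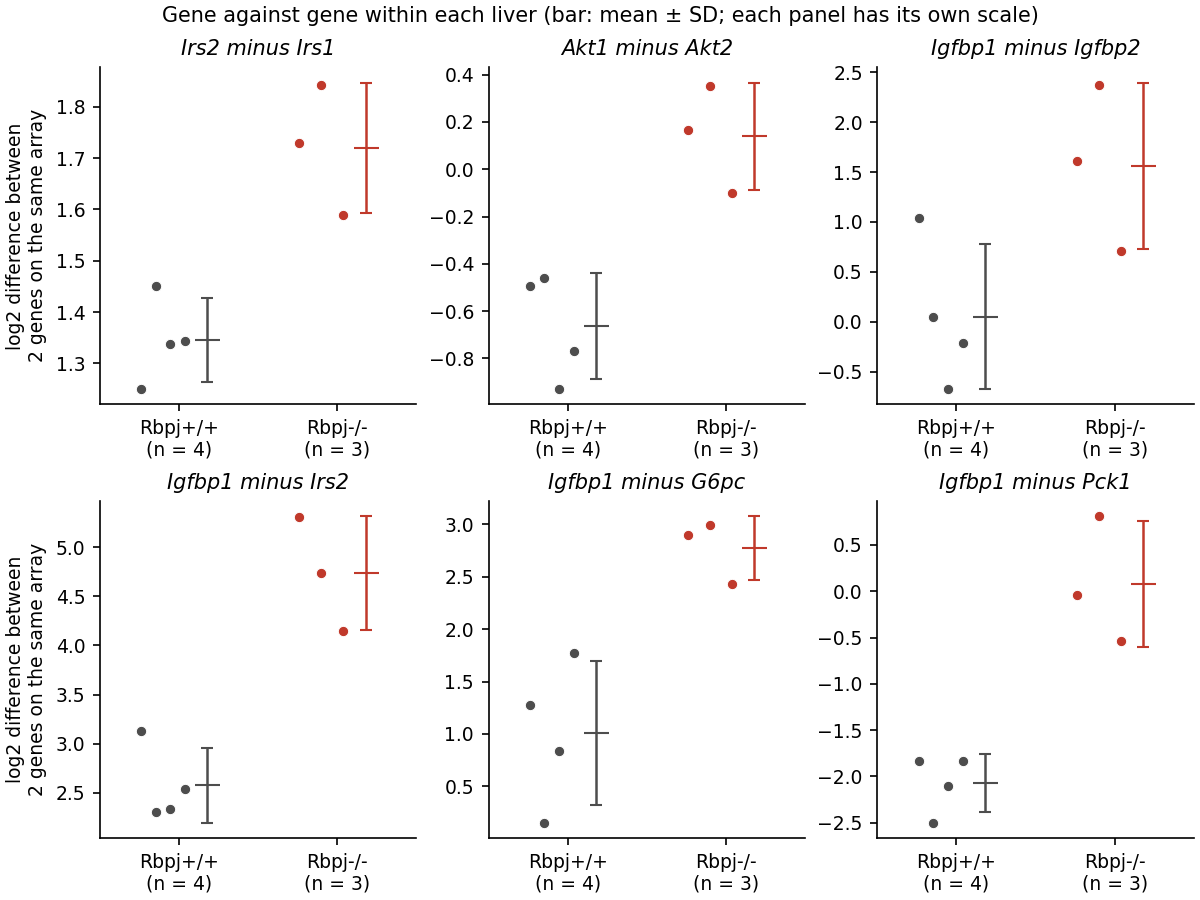
Level of the first gene minus that of the second on the same array, in log2 units, for 6 gene pairs, of which the 3 of Igfbp1 with Irs2, G6pc and Pck1 were chosen after the values were seen; each point is 1 liver (4 Rbpj+/+, 3 Rbpj-/-) and the bar is the mean ± SD, with a scale of its own in each panel. Of the pairs tested, the groups are apart by 0.37 for Irs2 minus Irs1 and 0.80 for Akt1 minus Akt2, and overlap for Igfbp1 minus Igfbp2. The 3 pairs chosen afterwards, such as Igfbp1 minus Irs2 at 2.16, carry the difference of 2.0 of Igfbp1 itself and are no further evidence.

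Transcripts that insulin induces through SREBP-1c and related factors gave no common direction. Of 7 tested, 0 were higher (1 at an unadjusted p below 0.05) and 1 (14.3%) was lower, with a median difference of 0.38. Of all genes 14.6% were higher and 19.6% lower. The lower one was *Pklr*, the liver pyruvate kinase of glycolysis, at -1.09 (SE 0.34, adjusted p = 0.0483), with levels of 1.47 to 1.94 in *Rbpj*+/+ and -0.12, 1.42 and 0.41 in *Rbpj*-/- livers. The animals -/-_N3 and -/-_2866 carried most of that difference, and -/-_N5 lay just below the *Rbpj*+/+ range. The call was lost without -/-_N3 (-0.75, adjusted p = 0.147), without -/-_2866 (-1.01, adjusted p = 0.117), without +/+_1024 (-1.0, adjusted p = 0.117) and without the 2 arrays with brighter dim probes (-0.80, adjusted p = 0.142).

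Among the other proteins that bind insulin-like growth factors or the complexes they form, 6 were tested, with a median of -1.01. Of these 3 (50%) were lower, against 19.6% of all genes. In the higher direction there were 0 (0 at an unadjusted p below 0.05), against 14.6% of all genes. *Igfals* encodes the acid-labile subunit that hepatocytes add to the circulating IGF complex. It had levels of 3.32, 2.44, 2.56 and 3.19 in *Rbpj*+/+ and -1.91, -2.62 and -0.59 in *Rbpj*-/- livers. The groups were far apart, and the difference was -4.58 (SE 0.45, adjusted p = 0.000616), or 23.9-fold. *Igfals* was called in all 19 alternative settings, but the size of its difference depended on the setting. It ranged from -5.14 without -/-_2866 to -2.98 with normexp background correction. *Igfbp3*, the main carrier of IGF-1 in that complex, fell by 1.96 (SE 0.46, adjusted p = 0.0181), from 0.64 to 1.55 in *Rbpj*+/+ livers to -2.11, -0.30 and -0.24. *Igfbp5* was called at -1.72 (SE 0.64, adjusted p = 0.0840) although its groups overlapped, with -/-_N3 at -0.20 above +/+_1156 at -0.84, and the call was lost without any 1 of 5 of the 7 arrays (+/+_1155, +/+_1024, +/+_991, -/-_N5 and -/-_2866), with adjusted p of 0.120 to 0.240, and with quantile normalization (-1.47, adjusted p = 0.182). *Igfbp4* (-0.24, adjusted p = 0.608), *Igfbp6* (-0.31, adjusted p = 0.839) and *Igfbp7* (0.50, adjusted p = 0.212) were not called. *Igfbp6* ranged from -1.78 in +/+_1156 to 2.04 in +/+_991 within *Rbpj*+/+, and without the 2 arrays with brighter dim probes it was lower by 1.94 on the log2 scale (adjusted p = 0.0414).

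The remaining pathway genes were read by role. Over all 7 lists, those of the 3 preceding paragraphs included, 74 of 80 genes were tested, of which 12 were higher and 11 lower, 31.1% against 34.2% of all genes, with a median difference of -0.05. Leaving out 1 array at a time gave 9 to 14 higher and 6 to 15 lower, with 6 lower without +/+_1024, 7 without -/-_N3 and 15 without +/+_1156. Without a filter on dim probes 3 were higher and 2 lower. Of the 12 higher, *Pik3r5* and *Trib2* passed that filter through the *Rbpj*-/- arrays alone. With detection required on all 7 arrays 11 were higher and 12 lower. Among receptors and adaptors 2 of 10 (20%) were higher and 1 (10%) lower (median -0.14), against 14.6% and 19.6% of all genes. *Gab1*, a docking adaptor that recruits PI3-kinase, lay at -2.32 to -1.74 in *Rbpj*+/+ and -0.99 to -0.90 in *Rbpj*-/- livers and rose by 0.98 (adjusted p = 0.0112), although not past the threshold with quantile normalization (1.17, adjusted p = 0.124), in the authors' table (1.17, adjusted p = 0.126) or with normexp (0.21, adjusted p = 0.221). *Igf1r*, the receptor of insulin-like growth factor 1, rose by 0.78 (adjusted p = 0.0440). With normexp the difference was 0.24 (adjusted p = 0.218) and without the 2 arrays with brighter dim probes 0.72 (adjusted p = 0.130). The call was also lost without +/+_991 (0.72, adjusted p = 0.104), without -/-_N3 (0.77, adjusted p = 0.105) and without -/-_N5 (0.69, adjusted p = 0.147). *Irs4*, a substrate of the same family as *Irs1*, fell by 1.15 (adjusted p = 0.0118), a call just lost in the authors' table (-1.23, adjusted p = 0.101).

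In the list of PI3-kinase subunits and kinases of the AKT family, 4 of 15 (26.7%) were higher and 1 (6.67%) lower (median 0.10). Of all genes 14.6% were higher and 19.6% lower. *Sgk1*, a kinase related to AKT that PI3-kinase also activates, had levels of 1.57, 1.65, 1.03 and 0.91 in *Rbpj*+/+ and 3.79, 3.18 and 2.86 in *Rbpj*-/- livers. Its groups were well apart, with a difference of 1.99 (SE 0.29, adjusted p = 0.00288) that was called in all 19 alternative settings. *Pik3r5*, a regulatory subunit of the PI3-kinase of leukocytes, was detected in none of the 4 *Rbpj*+/+ livers and in all of the 3 *Rbpj*-/- livers, at least 2.90-fold higher (limma adjusted p = 0.0196, where the bound takes for each *Rbpj*+/+ array the lowest detected signal or the signal of the probe, whichever was higher). It passed the filter on dim probes through the *Rbpj*-/- arrays alone and so had to differ, which makes its p no fair test, and with normexp its difference was 0.06 (adjusted p = 0.776). *Gsk3a*, the kinase that AKT inhibits to let glycogen synthase act, fell by 0.64 (adjusted p = 0.0438), a call lost without +/+_1024 (-0.57, adjusted p = 0.114) and without -/-_N3 (-0.51, adjusted p = 0.142).

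The brakes on the pathway held 6 higher (30%) and 3 lower (15%) genes of 20 tested (median 0.04), with changes in both directions. The shares over all genes were 14.6% and 19.6%. One of the higher ones, *Trib2*, named after its values were seen, was likewise detected in 0 of 4 *Rbpj*+/+ and 3 of 3 *Rbpj*-/- livers, so that its call is no fair test either. *Socs3*, which cytokines induce and which blocks signalling from the insulin receptor, had levels of 2.57, 2.49, 1.72 and 1.44 in *Rbpj*+/+ and 5.20, 5.59 and 2.98 in *Rbpj*-/- livers. All 3 *Rbpj*-/- livers lay above, -/-_N3 and -/-_N5 far above and -/-_2866 close to the *Rbpj*+/+ range, and the difference was 2.54 (SE 0.59, adjusted p = 0.0173). *Inpp5d*, the phosphatase SHIP1 of blood cells that removes the lipid made by PI3-kinase, rose by 1.64 (SE 0.19, adjusted p = 0.00129) and was called in all 19 alternative settings. Macrophage markers rose in the same livers (5 of 6), and their part in the differences of *Pik3r5* and *Inpp5d* was not tested. *Grb14*, an adaptor that binds the activated insulin receptor and inhibits it, went the other way, from 4.30 to 4.74 in *Rbpj*+/+ to 3.14 to 3.31 in *Rbpj*-/- livers, a difference of -1.26 (SE 0.19, adjusted p = 0.00302) called in all 19 alternative settings. *Deptor*, an inhibitor of mTOR, fell by 1.01 (SE 0.26, adjusted p = 0.0243).

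In the mTOR branch 0 of 11 were higher (0 at an unadjusted p below 0.05) and 2 (18.2%) lower (median -0.21). Of all genes 14.6% were higher and 19.6% lower. *Rps6kb1*, the S6 kinase downstream of mTOR, fell by 0.83 (SE 0.19, adjusted p = 0.0160) by its brightest probe, and 2 of its 3 tested probes were lower, the 3 ranging from -0.83 to -0.32. *Akt1s1*, the AKT substrate PRAS40, was called at -0.59 (adjusted p = 0.0728), a call lost on leaving out any 1 array other than -/-_2866, with adjusted p of 0.101 to 0.215, and without the 2 arrays with brighter dim probes (-0.37, adjusted p = 0.212).

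**Figure D4:**
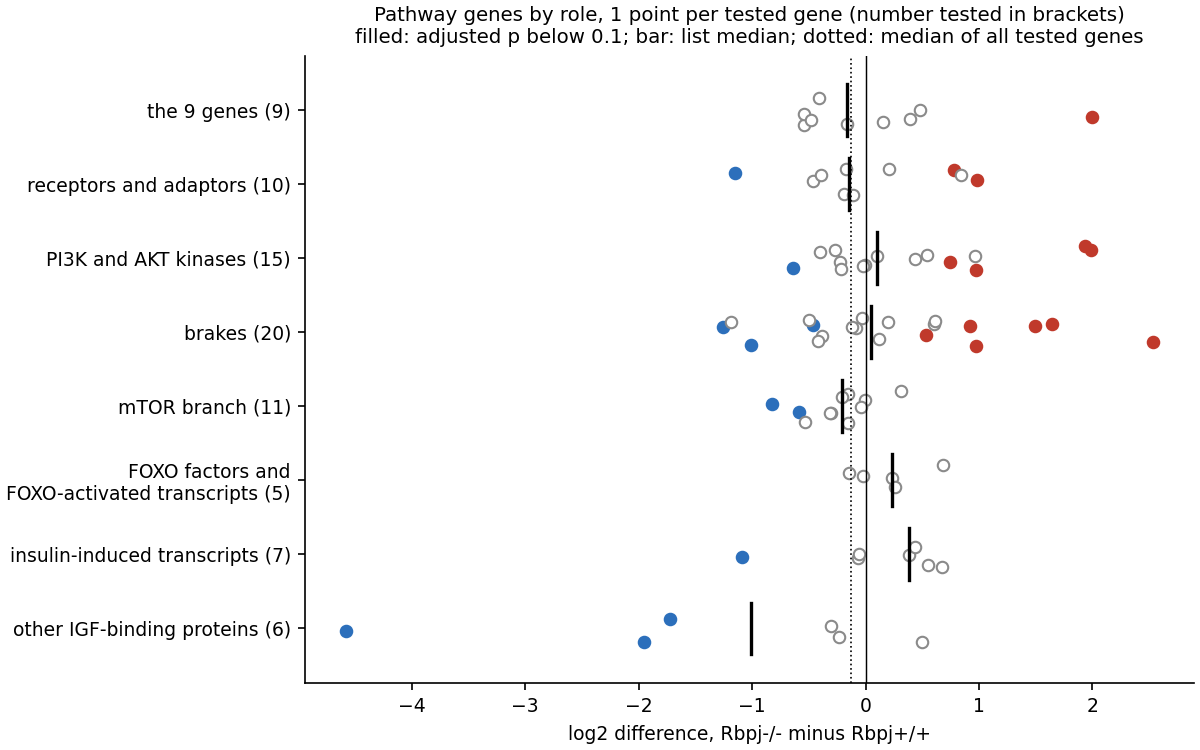
Difference between the genotypes in log2 units, Rbpj-/- minus Rbpj+/+, for each tested gene of the pathway lists, with the number tested in brackets; filled points have an adjusted p below 0.1, bars are list medians and the dotted line is the median of all tested genes, -0.13. Igfals at -4.58 and Socs3 at 2.54 lie at the ends, and the FOXO list, with 5 tested genes, has no filled point. Of all tested genes 34.2% were called.

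**Figure D5:**
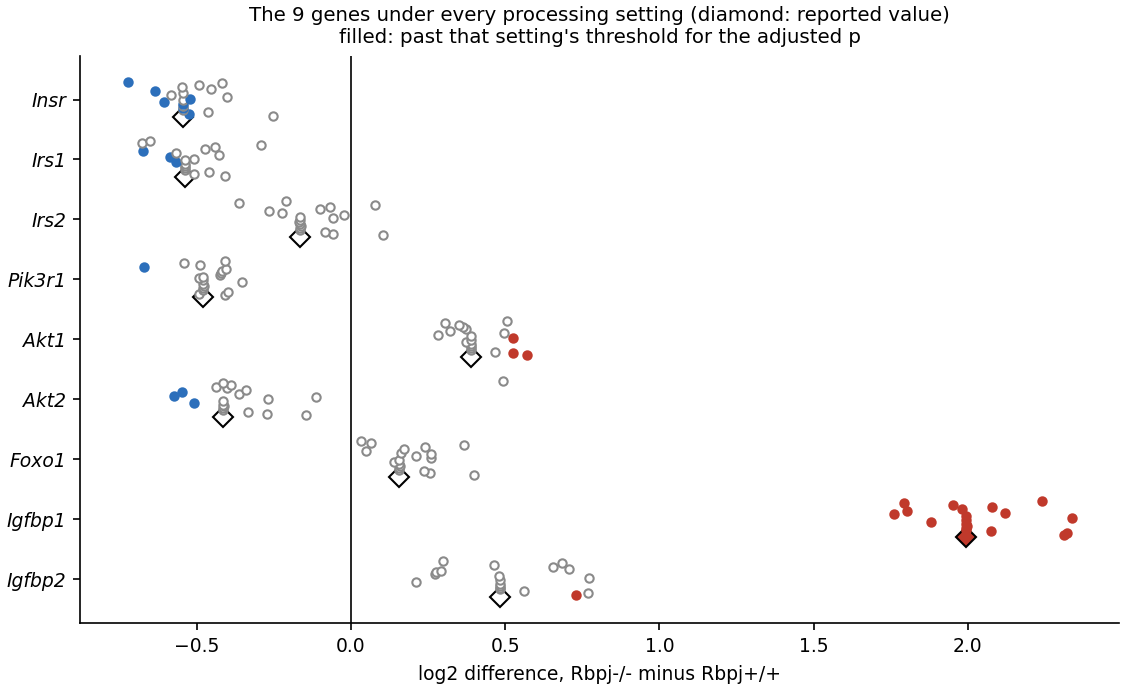
Difference between the genotypes in log2 units for each of the 9 genes as reported (diamonds) and under every alternative setting run on it (circles, 19 per gene and 20 for Akt2), filled where it passed the threshold of that setting. Igfbp1 is filled throughout, from 1.76 to 2.34; Irs2 and Foxo1 are filled nowhere, and Akt2 crosses 0 when only its chromosome 7 probe is used.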

How the data were processed

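The authors hybridised RNA of each liver to a one-colour Agilent mouse array on 1 slide and extracted the spots with Agilent Feature Extraction 10.7.3.1, per the labels. The deposited scanner files give background-subtracted intensity, and the deposited log2 table gives values centred per probe, with array medians of 0 or -0.0039. That table correlated at r = 1.00 with quantile-normalized and 0.776 to 0.876 with percentile-shifted values, so its scaling differs from the percentile shift in the study's methods. Here flagged spots were left out (146 probe values), spots of a probe were averaged and each array's 75th percentile was subtracted (R 4.3.3, limma 3.58.1, Python 3.11.15). A probe was detected where the scanner marked it as positive, significant and clearly over background, and the 24548 probes detected in every liver of either genotype were tested with lmFit and eBayes, false discovery rate 0.1. A gene was read by its brightest tested probe. Named genes are *Rbpj*, the 9 members, every other IGF-binding protein and, per remaining list, the 2 largest called rises and falls. The genes of the list of FOXO-activated transcripts, which had no call, and *Trib2* were named after their values were seen. Members and lists were chosen with earlier results of these data known. All *Rbpj*+/+ arrays lay in 1 row of the slide and all *Rbpj*-/- arrays in the other, so row and genotype cannot be told apart. The number of arrays limits the precision. The fit was tested on simulated data. Probe positions are those of the array design. Alternatives were another background correction, normalization, filter, variance model, threshold, probe rule, the authors' table and leaving out arrays.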

Additional observations from a re-analysis of the deposited data

Results flagged for a closer look

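The *Pik3r1* probe in +/+_991, at 0.40 against 1.16 to 1.21 in the other *Rbpj*+/+ livers, stood far from its group, with a gap to its nearest neighbour of 0.936 of the group's whole range. It was the only 1 of the 16 probes past the limit used for 4 samples, and chance alone flags about 1 group in 20. The array of that animal was not one of the pair with brighter dim probes.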

How the results depend on the processing

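*Igfbp1* kept its direction and its call in all 19 alternatives. The count of higher members, 1 as reported, was 3 with normexp (*Akt1*, *Igfbp1*, *Igfbp2*) and 2 with quantile normalization or the authors' table (*Akt1*, *Igfbp1*). The count of lower members, 0 as reported, was 1 with quantile normalization, detection on all 7 arrays, limma-trend or the authors' table (*Insr* each time), 1 with the mean of probes (*Irs1*), 1 without the 2 brighter arrays (*Akt2*) and 3 with array weights. Leaving out 1 array gave 0 to 3, with 3 without +/+_1156 (*Insr*, *Irs1*, *Akt2*) and 1 without +/+_991 (*Pik3r1*) or -/-_2866 (*Insr*). Without a filter on dim probes the other pathway genes gave 3 higher and 2 lower, and with array weights 17 lower; leaving out 1 array gave 6 to 15 lower. *Irs2* changed sign with normexp (0.10) and ranged from -0.36 to 0.0791 on leaving out 1 array. *Akt2* (0.49) and *Akt1* minus *Akt2* (-0.10) changed sign with the chromosome 7 probe. *Irs2* minus *Irs1* gave 0.42 with the mean of probes. With 1 array left out a gene pair cannot reach an exact p below 0.0667 (4 against 2) or 0.1 (3 against 3). *Igfbp4* changed sign with normexp (0.0917), *Igfbp6* with quantile normalization (0.0526) and the authors' table (0.0577), and the dimmest *Insr* probe without the 2 brighter arrays (-0.0546). On leaving out 1 array they ranged from -0.41 to 0.00896, -1.17 to 0.45 and -0.14 to 0.38. No paired analysis was possible because the groups share no replicate number. Dim probes set the limit of depth here: 6 of the 80 other pathway genes were too close to background to be tested.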
